A study of Mus musculus with 18 samples.

Results

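The 39 genes described here encode the machinery that copies DNA and the regulators that bring a cell from G1 into S phase. They were chosen by name and comprise 10 origin licensing factors, 5 helicase activation factors, 11 fork enzymes, 5 enzymes of nucleotide supply, 4 G1 to S regulators and 4 chromatin or checkpoint factors of S phase. Each name matched 1 of the 49671 gene models counted, and all 39 passed the filter on low counts and were tested. Flow cytometry had sorted the CD8+ and CD4+ T cells from subcutaneous flank tumors of B6 mice, 12 days after injection of B16f10-OVA cells (mouse melanoma with added ovalbumin), and their RNA was sequenced. For each cell type there were 3 groups of 3 libraries. Treated deficient mice (labelled 155 Flox CD4cre with ICB) carried the floxed miR-155 allele and CD4cre, a Cre gene switched on in T lineage cells, and on days 3, 6 and 9 had received anti-CTLA-4 together with anti-PD-1/PD-L1 antibodies. Deficient mice (155 Flox CD4cre) had the same alleles and no antibodies, and floxed mice (155 Flox) had the allele without Cre. Every group thus carried the floxed allele, the antibodies were tested in deficient mice alone, and mice with Cre but no floxed allele were not analysed here. Each library pooled cells of 2 to 3 tumors from separate mice. Nothing in the labels tells if pools shared animals across groups or cell types, so p-values measure only the spread between these pools.

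Levels are CPM, read counts scaled to the size of each library, here after TMM normalization, and calls are adjusted p-values under 0.05 in edgeR's quasi-likelihood test (Benjamini-Hochberg over the 14080 genes tested). Libraries held 3198435 to 11645432 counts. In 3 of them over 5% of counts fell on ribosomal models, namely treated deficient CD8 replicate 2 (25.6%), deficient CD4 replicate 3 (11.8%) and floxed CD8 replicate 1 (5.82%). Mir155hg, the transcript that holds miR-155, had 0.344 to 0.524 CPM in treated deficient, 0.235 to 1.9 in deficient and 9.06 to 20.5 in floxed CD8 libraries, and 0 to 0.191, 0 to 0.648 and 4.87 to 8.22 CPM in the same groups of CD4 libraries. Cd8a had 975 to 1166, 623 to 726 and 1143 to 1446 CPM and Cd8b1 521 to 641, 338 to 419 and 572 to 741 CPM in treated deficient, deficient and floxed CD8 libraries, where Cd4 had at most 3.13 CPM. Cd4 had 233 CPM or more in every CD4 library, while Cd8a had 1.83 to 17.4, 0.136 to 0.282 and 14.6 to 149 CPM in treated deficient, deficient and floxed CD4 libraries. Markers of melanoma cells and of macrophages were present in every group and are given beside the results they move with.

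Replication is prepared in G1, when the origin recognition complex with Cdc6 and Cdt1 loads the ring-shaped Mcm2 to Mcm7 helicase onto DNA, and it starts when kinases add Cdc45 and the GINS complex to that ring. Cyclin E with its kinase inactivates the retinoblastoma protein, which frees E2F transcription factors, and E2F factors switch on many genes of this list. T cells divide fast after antigen recognition, so the RNA of these genes in a sorted population reflects how many cells are in cycle as well as how much each cell makes. In bulk RNA fewer cycling cells and less RNA per cell cannot be told apart.

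E2F factors act through short motifs near the transcription start, so promoters of 4 members that hold such motifs are shown, because the motifs are a feature the list was not chosen by. The motifs searched were TTTCGCGC, TTTGGCGC, TTTCCCGC and TTTGCCGC on both strands, in windows of 250 bases before to 50 bases after each RefSeq start (build GRCm38.p6). Capitals mark the matches, and in Mcm6 and Mcm5 a pair of matches on opposite strands overlaps. The windows are 80 bases long, lie outside annotated exons and are written on the gene's strand.
Mcm6: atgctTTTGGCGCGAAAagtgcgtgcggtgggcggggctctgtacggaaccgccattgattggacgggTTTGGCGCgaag
Mcm5: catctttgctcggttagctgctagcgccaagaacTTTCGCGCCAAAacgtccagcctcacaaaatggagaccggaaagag
Pola1: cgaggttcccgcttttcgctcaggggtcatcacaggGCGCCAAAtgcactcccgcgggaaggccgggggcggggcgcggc
Uhrf1: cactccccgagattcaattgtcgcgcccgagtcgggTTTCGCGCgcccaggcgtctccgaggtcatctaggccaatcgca
These are chr1:128359741-128359820 on the minus strand for Mcm6, chr8:75109322-75109401 on the plus strand for Mcm5, chrX:93632250-93632329 on the minus strand for Pola1 and chr17:56304092-56304171 on the plus strand for Uhrf1. The Uhrf1 window lies inside the deposited gene model, because its RefSeq start is downstream of the start of that model.

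The promoter table held 39 windows of 33 members. An E2F-type motif stood in 15 of these windows (38.5%), against 744 of all 32851 windows (2.26%). The 15 genes were Cdc6, Cdt1, Clspn, E2f2, Gins3, Lig1, Mcm3, Mcm5, Mcm6, Mcm7, Orc1, Pola1, Pold1, Rfc3 and Uhrf1. The CCAAT box stood in 23 member windows (59.0%), against 37.4% of all windows. The CHR element (TTTGAA or TTCGAA), known from genes of G2 and mitosis, stood in 7 member windows (17.9%), against 19.2% of all. Members with and without an E2F-type match in these windows had like changes. Only exact matches there were counted, so the split does not tell which members E2F factors act on. The median log2 fold change in the CD8 deletion comparison described below was -0.79 for the 15 genes with an E2F-type match, of which 13 fell, and -0.80 for the 18 without, of which 14 fell.

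The mature miR-155-5p, the product of the floxed gene, is shown with its seed, bases 2 to 8, in capitals, because the seed decides which transcripts the microRNA pairs with (RefSeq, chr16:84714143-84714165, plus strand).
mmu-miR-155-5p: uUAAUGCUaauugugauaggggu
A match to this seed, AGCATTA, was found in the 3′ UTR of 4 of the 39 members and of 1144 of 12147 tested genes (9.42%) in GENCODE M21 transcripts. The sites are printed with the seed match in capitals.
E2f2: tgttttaagtttgtAGCATTAa
Mcm2: taggccaaggctgtAGCATTAa
Cdt1: gcacaaactactcaAGCATTAg
Mcm4: ttcaaagccattgtAGCATTAa
Loss of a microRNA would leave more of a paired transcript. The log2 fold change in deficient against floxed CD8 cells was -0.89 for E2f2, -0.17 for Mcm2, 0.07 for Cdt1 and -0.69 for Mcm4. In CD4 cells it was 0.28, 0.56, 0.46 and 0.14 for the same genes. Of these values those of E2f2 and Mcm4 in CD8 cells and of Mcm2 in CD4 cells passed the test, and a match of letters does not show that a site is used.

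In CD8 cells the replication genes were lower in deficient than in floxed tumors, and higher in treated than in untreated deficient tumors. Of the 39 genes, 31 fell with the deletion and none rose, with a median log2 fold change of -0.76, while 9.61% of all tested genes fell and their median was -0.01. With the antibodies 33 of 39 rose and none fell, with a median of 0.72, while 8.25% of all tested genes rose and their median was -0.03. The 39 levels summed to 5966 to 6370.2 CPM in treated deficient, 3636 to 4037 in deficient and 5836 to 6776 in floxed CD8 libraries. The deficient libraries thus lay below those of both other groups without overlap, and the other groups overlapped each other. Gene by gene, the 3 deficient libraries lay below the 3 floxed ones for 36 of 39 members (16.4% of all tested genes did so), and the 3 treated ones above the 3 deficient ones for 37 (22% of all tested genes). The deletion and blockade comparisons share the 3 deficient libraries, so their values are given side by side and not as independent of each other. Without the 3 libraries over 5% ribosomal, a choice made after the values were seen, 29 members fell with the deletion and 27 rose with the antibodies. Orc1, E2f1 and Chaf1b lost their deletion call without deficient replicate 1.

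**Figure D1:**
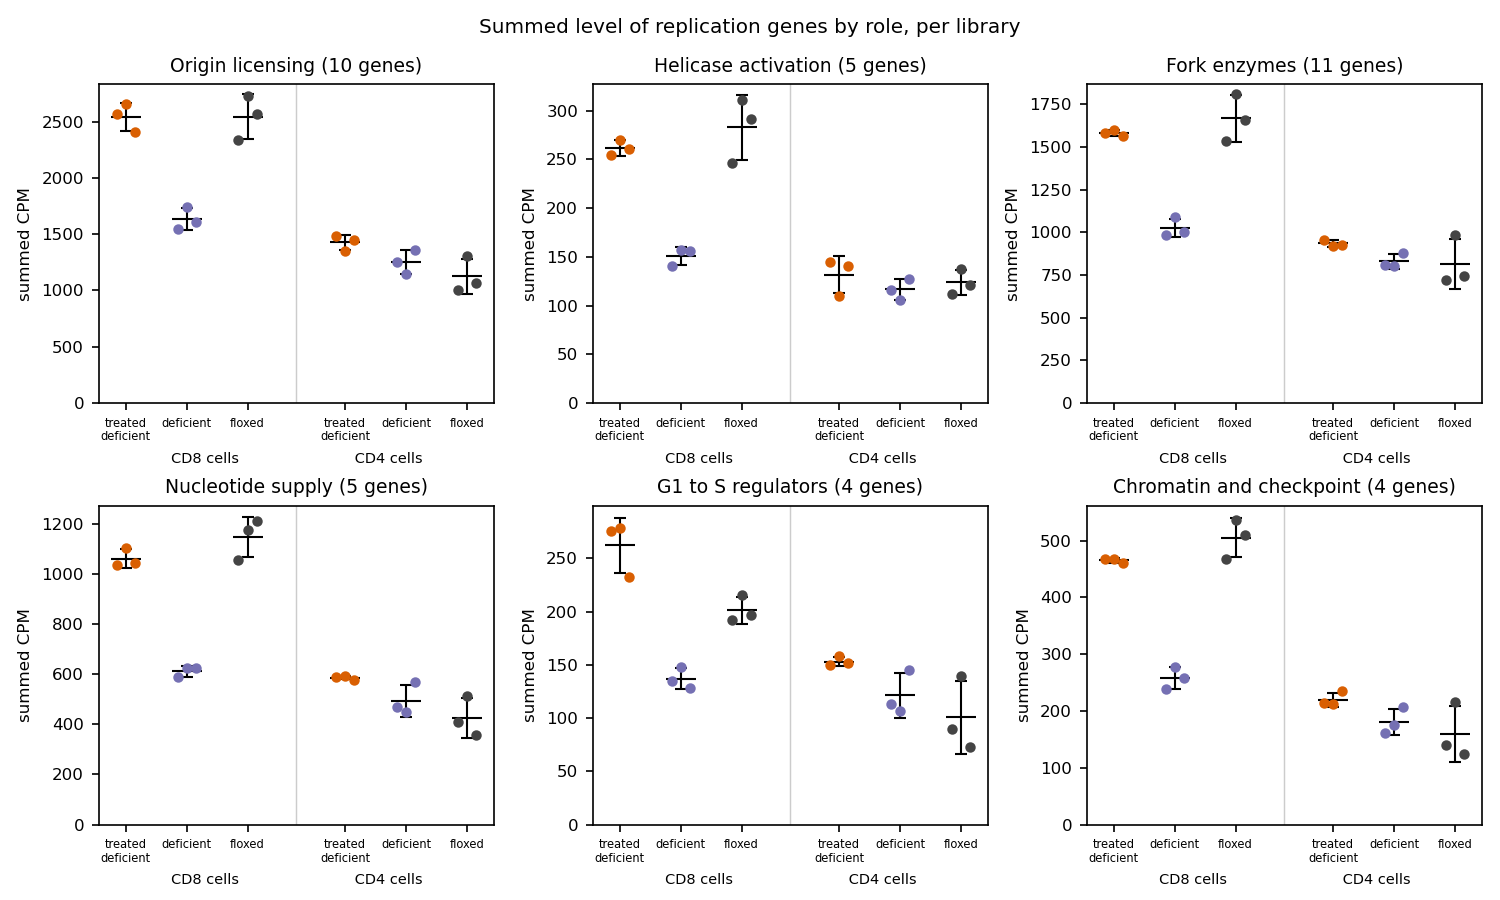
Summed level (CPM, y axis from 0) of the members of each role in every library, by cell type and group, with each point 1 library and the bars the mean ± SD of 3. In all 6 panels the 3 deficient CD8 libraries, and all CD4 libraries, sat below the treated deficient and floxed CD8 ones.

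The same libraries differed in cells other than T cells. The 15 melanoma markers, all detected in every group, summed to 389 to 1763 CPM in treated deficient, 1419.9 to 3229 in deficient and 173 to 215 in floxed CD8 libraries, and 12 of the 15 were called higher in the deletion comparison. In at least 1 floxed CD8 library Oca2 and S100b were at 0, and no other melanoma marker was. The 20 macrophage and monocyte markers summed to 1147 to 1333, 1724 to 3467 and 797 to 2323 CPM in those groups, with Ms4a7 at 0 in at least 1 floxed library. Of the 20, 9 rose with the deletion, and 16 fell and 1 rose with the antibodies. The marker that rose was Ccr2, which averaged 615 CPM in treated and 264 CPM in untreated deficient CD8 libraries. The sums it is part of averaged 1225 and 2520 CPM there. The 10 dendritic cell markers summed to 283 to 499.8 CPM in treated deficient, 816 to 1576 in deficient and 352 to 427 in floxed CD8 libraries. Of these 5 were called higher for the deletion, and 6 lower and 1 higher for the antibodies. Clec9a or Xcr1 was at 0 in at least 1 library of each CD8 group. The 7 B cell markers summed to 90.9 to 122, 222 to 255 and 74.8 to 81.7 CPM in those groups. The part of dendritic and B cell RNA in the members' changes was not tested. The 12 pan T cell genes summed to 5069.7 to 5219, 3266 to 3516 and 3880.4 to 5150.2 CPM, and 5 of the 12 fell with the deletion. Per 100 CPM of the pan T cell genes, a ratio chosen after the values were seen, the members had 118 to 123 CPM in treated deficient, 104 to 116 in deficient and 113 to 166 in floxed CD8 libraries. On that ratio the deficient and floxed libraries overlapped, and the treated libraries still lay above the deficient ones.

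With the melanoma and macrophage sums as covariates, 0 of 39 members were called in the CD8 deletion comparison (median -0.57) and 8 in the CD8 blockade comparison (median 0.61), where the fit without them called 31 and 33. That fit left 10 residual degrees of freedom, and called 123 genes in all for the deletion. Its total for the antibodies is not given here, so the 8 members called there have no share beside them. Since the melanoma sums of deficient and floxed CD8 libraries did not overlap, the deletion and the melanoma RNA cannot be told apart in this comparison. In CD4 cells the melanoma sum was 1894 to 4449.5 CPM in deficient and 169.6 to 683 in floxed libraries. The macrophage sum moved the other way, with 5014 to 6951 CPM in deficient and 14499 to 29478 CPM in floxed CD4 libraries. So did the dendritic cell sum, with 3291 to 5173 CPM in deficient and 7695.5 to 17654 CPM in floxed CD4 libraries. The part of these shifts in the CD4 values was not tested separately.

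**Figure D2:**
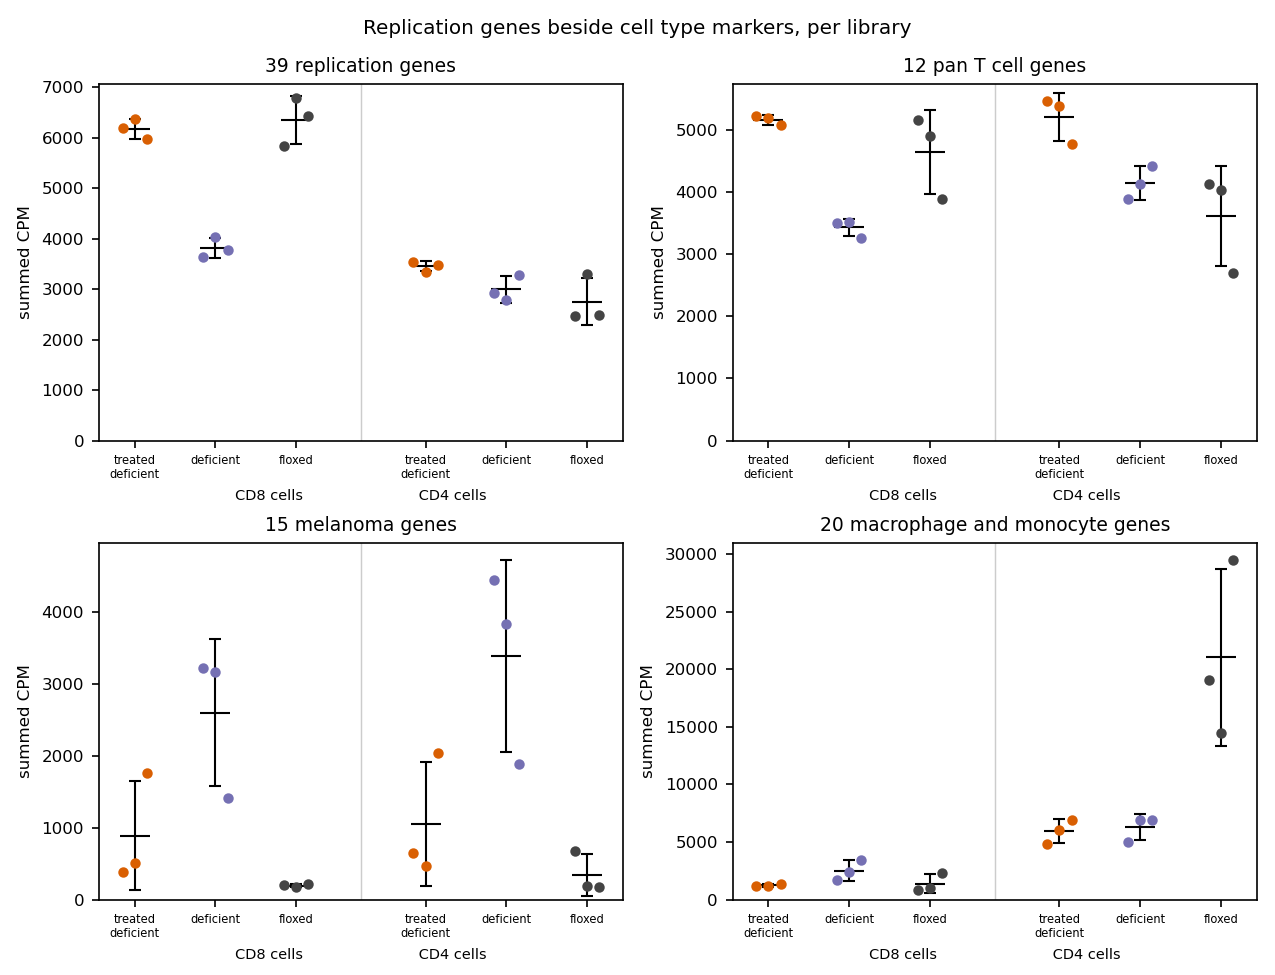
Summed level (CPM, y axis from 0) of the 39 replication genes and of pan T cell, melanoma and macrophage markers in every library, with the mean ± SD of 3. Melanoma RNA had its highest mean in the untreated deficient group of both cell types, the replication and pan T cell sums were lowest there among CD8 groups, and macrophage RNA was highest in floxed CD4 libraries.

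Origin licensing factors fell in 8 of 10 cases with the deletion and rose in 8 of 10 with the antibodies in CD8 cells (median log2 fold changes -0.70 and 0.66). Mcm3, a subunit of the replicative helicase (chr1:20802968-20820312, minus strand), had 325, 339 and 309 CPM in treated deficient, 210.3, 234 and 211 in deficient and 378, 391 and 402 in floxed CD8 libraries. The deficient libraries lay below both other groups, with a log2 fold change of -0.84 ± 0.12 (SE) for the deletion (edgeR adjusted p = 5.09e-05) and 0.57 ± 0.12 for the antibodies (adjusted p = 0.00238). Mcm6 had 660.3, 701 and 638 CPM in treated deficient CD8 libraries, 378, 406 and 410.1 in deficient and 575, 721 and 668 in floxed ones. Mcm6 encodes another subunit of the ring and had the highest level per kilobase of annotated exon among the members in floxed CD8 cells (140.3 CPM per kb). Its groups did not overlap in either comparison, and the log2 fold changes were -0.72 ± 0.12 (edgeR adjusted p = 3.94e-04) and 0.74 ± 0.12 (adjusted p = 3.79e-04).

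Mcm5 had 407, 430.4 and 368 CPM in treated deficient CD8 libraries, 209.6, 271 and 221 in deficient and 330.2, 443 and 439 in floxed ones. The helicase subunit Mcm5 changed by -0.79 ± 0.14 with the deletion (edgeR adjusted p = 4.55e-04) and by 0.78 ± 0.14 with the antibodies (adjusted p = 6.59e-04), on the log2 scale. Mcm4 had 338, 326 and 308 CPM in treated deficient, 208, 227 and 210.4 in deficient and 363, 351 and 325 in floxed CD8 libraries, again with the deficient libraries lowest. Its log2 fold changes were -0.69 ± 0.12 (edgeR adjusted p = 6.69e-04) and 0.59 ± 0.12 (adjusted p = 0.00318). Among the others, Mcm7, Orc6, Cdc6 and Orc1 fell by 0.63 to 1.17 on the log2 scale. Orc1, the large subunit of the origin recognition complex, did not pass the test with the antibodies (0.81 ± 0.32, edgeR adjusted p = 0.105), and its deficient libraries spread from 8.12 to 20.8 CPM.

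Mcm2 and Cdt1 were the licensing factors that did not fall. Mcm2 had 381, 378 and 356 CPM in treated deficient, 255, 294 and 259 in deficient and 266, 331 and 311 in floxed CD8 libraries. Its deficient libraries overlapped the floxed ones, with a log2 fold change of -0.17 ± 0.14 (edgeR adjusted p = 0.455), and lay below the treated ones (0.46 ± 0.14, adjusted p = 0.0329). Cdt1, the loader of the helicase that is destroyed once S phase begins, had 53.6, 56.2 and 55.3 CPM in treated deficient, 53.8, 57.7 and 62.7 in deficient and 69.0, 52.9 and 44.2 in floxed CD8 libraries. All 3 groups overlapped. It was the 1 member whose estimates had the opposite sign to the others, 0.07 ± 0.17 for the deletion (95% interval -0.31 to 0.44) and -0.08 ± 0.17 for the antibodies (-0.46 to 0.30), and its sign for the deletion turned when floxed replicate 3 (-0.062) or deficient replicate 3 was left out.

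Of the 5 helicase activation factors, 3 fell with the deletion and 4 rose with the antibodies in CD8 cells (medians -0.96 and 0.77). Cdc45 had 91.5, 105 and 90.8 CPM in treated deficient CD8 libraries, 46.3, 49.2 and 50.5 in deficient and 85.2, 116 and 98.6 in floxed ones. Cdc45 (chr16:18780447-18811987, minus strand) joins the Mcm ring and GINS to form the active helicase. The treated and floxed libraries overlapped and the deficient ones lay below both, and the log2 fold changes were -1.04 ± 0.16 (edgeR adjusted p = 1.15e-04) and 0.97 ± 0.16 (adjusted p = 3.39e-04). Mcm10, which helps to start the helicase, had 75.2, 64.9 and 67.3 CPM in treated deficient, 42.3, 46.8 and 43.7 in deficient and 77.8, 88.0 and 92.0 in floxed CD8 libraries, with changes of -0.96 ± 0.16 (edgeR adjusted p = 2.60e-04) and 0.65 ± 0.16 (adjusted p = 0.00872). Of the GINS subunits measured, Gins2 fell (-0.99), Gins1 had -0.68 ± 0.24 (edgeR adjusted p = 0.0548) and Gins3 -0.48 ± 0.23 (adjusted p = 0.159). All 3 had low levels, at most 49.7 CPM in any library.

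Fork enzymes fell in 9 of 11 cases with the deletion and rose in 9 of 11 with the antibodies (medians -0.72 and 0.65). Pole had 149, 127 and 146 CPM in treated deficient CD8 libraries, 96.2, 114 and 101 in deficient and 238, 219 and 220.1 in floxed ones. Pole (chr5:110286306-110337474, plus strand) encodes the catalytic subunit of the leading strand polymerase. Its 3 CD8 groups did not overlap, with the treated libraries between the others. The log2 fold change was -1.12 ± 0.16 for the deletion (edgeR adjusted p = 6.65e-05), 0.44 ± 0.16 for the antibodies (adjusted p = 0.0691) and -0.68 ± 0.16 in treated deficient against floxed cells (adjusted p = 0.02). Pole was the 1 member called lower in treated deficient than in floxed cells.

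Lig1, the ligase that seals fragments of the lagging strand, had 141, 101 and 126 CPM in treated deficient, 70.7, 80.9 and 74.3 in deficient and 172, 159.8 and 149 in floxed CD8 libraries. The deficient libraries lay below the others, by -1.09 ± 0.18 on the log2 scale against floxed (edgeR adjusted p = 3.62e-04), and the antibodies added 0.71 ± 0.18 (adjusted p = 0.0128). Fen1 had 179, 179 and 178 CPM in treated deficient CD8 libraries, 103, 118 and 105 in deficient and 145, 211 and 181 in floxed ones. Fen1, the nuclease that trims those fragments, changed by -0.72 ± 0.12 (edgeR adjusted p = 4.50e-04) and 0.72 ± 0.13 (adjusted p = 6.34e-04). Rfc2, a subunit of the clamp loader, had 144, 165 and 148 CPM in treated deficient, 100.1, 113 and 95.5 in deficient and 146, 183 and 190.1 in floxed CD8 libraries. The deficient libraries were again the lowest, and its log2 fold changes were -0.75 ± 0.14 (edgeR adjusted p = 7.58e-04) and 0.56 ± 0.14 (adjusted p = 0.00961).

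Pola1, Prim1 and Pold1, subunits of the priming and lagging strand polymerases, and the clamp loader subunits Rfc3 and Rfc5 fell by 0.61 to 0.76 on the log2 scale with the deletion, and all 5 rose with the antibodies. Pcna, the sliding clamp that Rfc subunits load, differed from these. It had 325, 351 and 327 CPM in treated deficient, 189, 235 and 215 in deficient and 236, 305 and 253 in floxed CD8 libraries. Its deficient libraries lay just below the floxed ones (-0.31 ± 0.12, edgeR adjusted p = 0.0826) and far below the treated ones (0.65 ± 0.12, adjusted p = 0.00139). Rfc4 passed in neither comparison, with -0.21 ± 0.21 and 0.23 ± 0.21 (95% intervals -0.66 to 0.24 and -0.22 to 0.68).

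All 5 enzymes of nucleotide supply fell with the deletion and rose with the antibodies in CD8 cells (medians -0.90 and 0.76). Dut had 223, 262 and 242 CPM in treated deficient CD8 libraries, 115, 115 and 126 in deficient and 239.6, 257 and 248 in floxed ones. Dut (chr2:125247190-125258608, plus strand), which breaks down dUTP and so keeps uracil out of DNA, had the smallest adjusted p of the 39 in both comparisons. Its deficient libraries lay far below the treated and floxed ones, which overlapped each other, with log2 fold changes of -1.06 ± 0.15 (edgeR adjusted p = 4.64e-05) and 1.03 ± 0.15 (adjusted p = 9.81e-05). Tyms, the thymidylate synthase, had 94.5, 98.8 and 87.1 CPM in treated deficient, 43.6, 56.7 and 56.0 in deficient and 84.6, 99.3 and 108 in floxed CD8 libraries. It fell by 0.90 ± 0.14 on the log2 scale (edgeR adjusted p = 1.12e-04) and rose by 0.84 ± 0.14 with the antibodies (adjusted p = 3.33e-04). Rrm2 had 176, 178 and 169 CPM in treated deficient CD8 libraries, 93.2, 109 and 112 in deficient and 206, 173 and 192 in floxed ones. Rrm2 is the S phase subunit of ribonucleotide reductase, which makes deoxynucleotides, and changed by -0.86 ± 0.13 (edgeR adjusted p = 1.15e-04) and 0.73 ± 0.13 (adjusted p = 7.60e-04). Its partner subunit Rrm1 changed by -0.85 and 0.70, and the thymidine kinase Tk1 by -0.94 and 0.76.

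**Figure D3:**
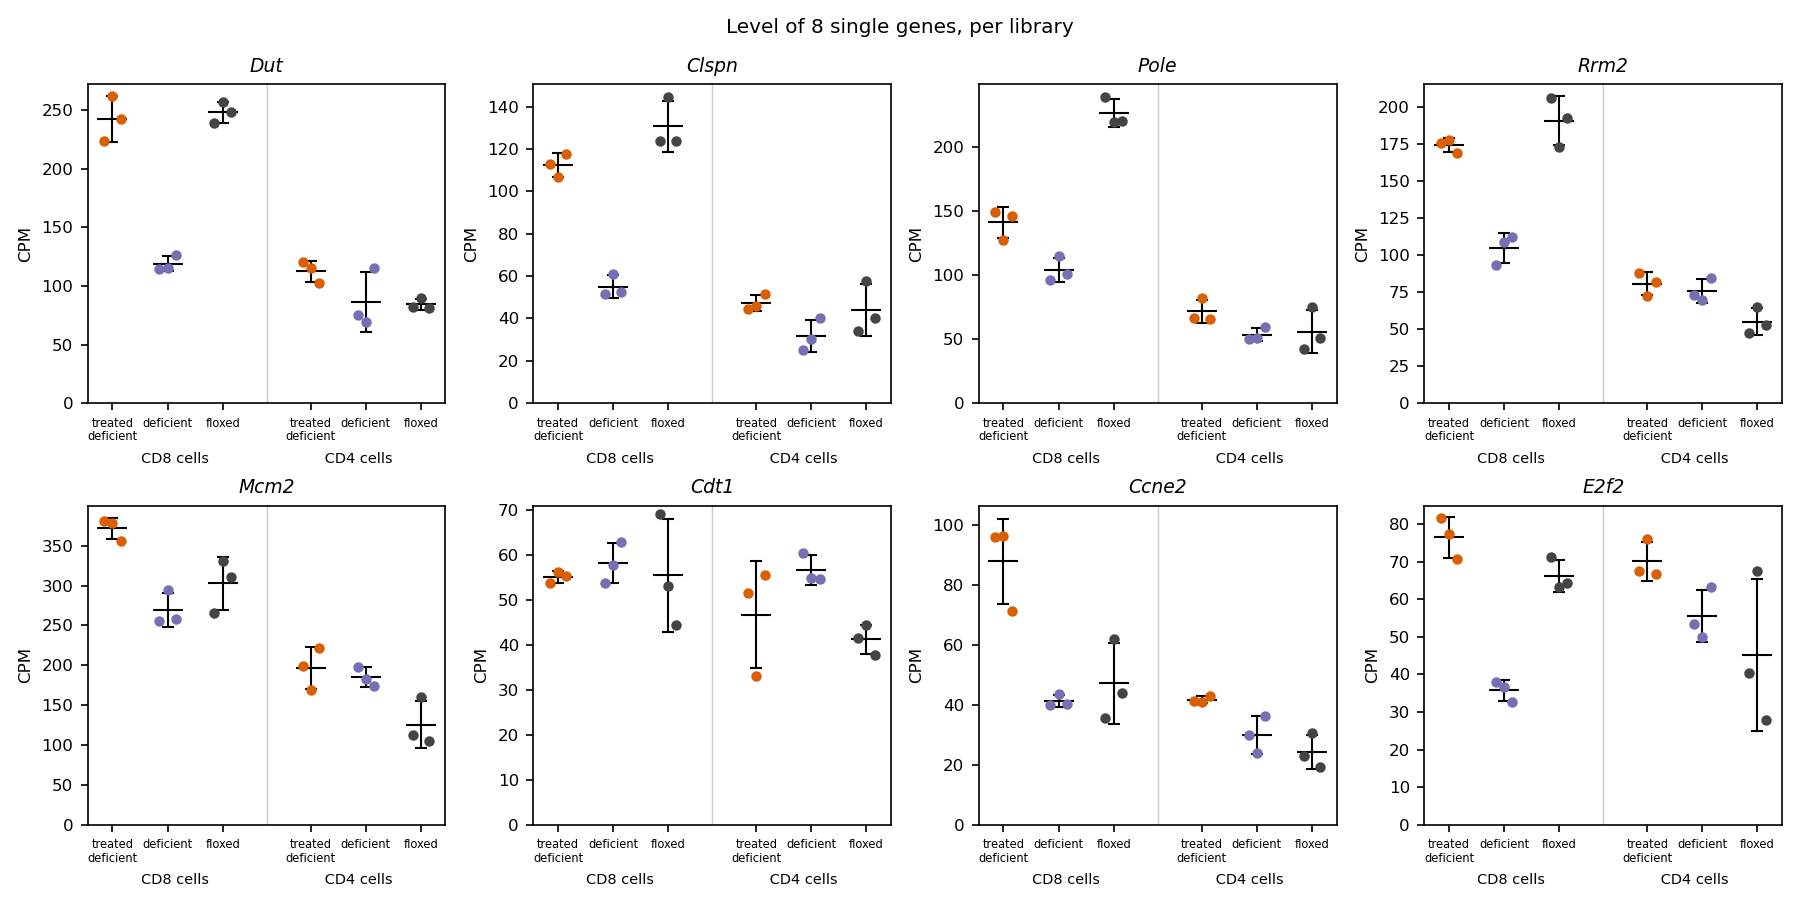
Level (CPM, y axis from 0) of 8 single members in every library, by cell type and group, with each point 1 library and the bars the mean ± SD of 3. Dut, Clspn and Rrm2 were low in deficient CD8 libraries only among CD8 groups, Pole stayed below floxed after treatment, Ccne2 exceeded floxed after treatment, and the CD8 groups of Cdt1 overlapped.

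Of the 4 G1 to S regulators, E2f1 and E2f2 fell with the deletion in CD8 cells, and E2f2, Ccne1 and Ccne2 rose with the antibodies (medians -0.65 and 0.90). E2f2 had 81.6, 77.3 and 70.8 CPM in treated deficient CD8 libraries, 38.1, 36.6 and 32.6 in deficient and 71.3, 63.4 and 64.3 in floxed ones. E2f2 (chr4:136172394-136196057, plus strand) encodes an activating E2F factor, and its deficient libraries lay below both other groups, with log2 fold changes of -0.89 ± 0.20 (edgeR adjusted p = 0.00445) and 1.10 ± 0.21 (adjusted p = 0.00119). E2f1, the other activating factor listed, had 20.7, 23.6 and 18.5 CPM in treated deficient, 11.6, 16.2 and 12.0 in deficient and 30.4, 23.1 and 24.5 in floxed CD8 libraries. It fell by 0.97 on the log2 scale with the deletion (edgeR adjusted p = 0.0115), and with the antibodies its change was 0.64 ± 0.26 (adjusted p = 0.109). Ccne1 and Ccne2 encode the E cyclins. Ccne2 had 95.9, 96.3 and 71.4 CPM in treated deficient, 39.9, 43.5 and 40.2 in deficient and 35.6, 61.9 and 44.1 in floxed CD8 libraries. The treated libraries stood above all others while the deficient and floxed ones overlapped, and the log2 fold changes were 1.09 ± 0.20 for the antibodies (edgeR adjusted p = 9.84e-04), 0.89 ± 0.20 in treated deficient against floxed cells (adjusted p = 0.0165) and -0.20 ± 0.20 for the deletion (adjusted p = 0.54). Ccne1 had 0.72 ± 0.23 for the antibodies (edgeR adjusted p = 0.042) and -0.41 ± 0.23 for the deletion (adjusted p = 0.234).

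The 4 chromatin and checkpoint factors all fell with the deletion and all rose with the antibodies (medians -0.98 and 0.83). Clspn had 113, 107 and 118 CPM in treated deficient CD8 libraries, 51.4, 61.2 and 52.6 in deficient and 124, 144 and 124 in floxed ones. Clspn (chr4:126556935-126593903, plus strand), the adaptor of the checkpoint that answers stalled forks, had the largest estimated fall of the 39, -1.25 ± 0.17 on the log2 scale (edgeR adjusted p = 5.00e-05), and rose by 1.03 ± 0.17 with the antibodies (adjusted p = 4.30e-04). Chaf1a, the large subunit of the factor that places histones on new DNA, had 80.3, 69.9 and 70.2 CPM in treated deficient, 33.6, 41.0 and 51.1 in deficient and 93.9, 82.5 and 90.8 in floxed CD8 libraries. Deficient libraries lay below both other groups, with -1.09 ± 0.19 (edgeR adjusted p = 4.73e-04) and 0.81 ± 0.19 (adjusted p = 0.00691). Its partner Chaf1b changed by -0.64 and 0.61, and Uhrf1, which guides maintenance methylation of new DNA, changed by -0.88 and 0.85.

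**Figure D4:**
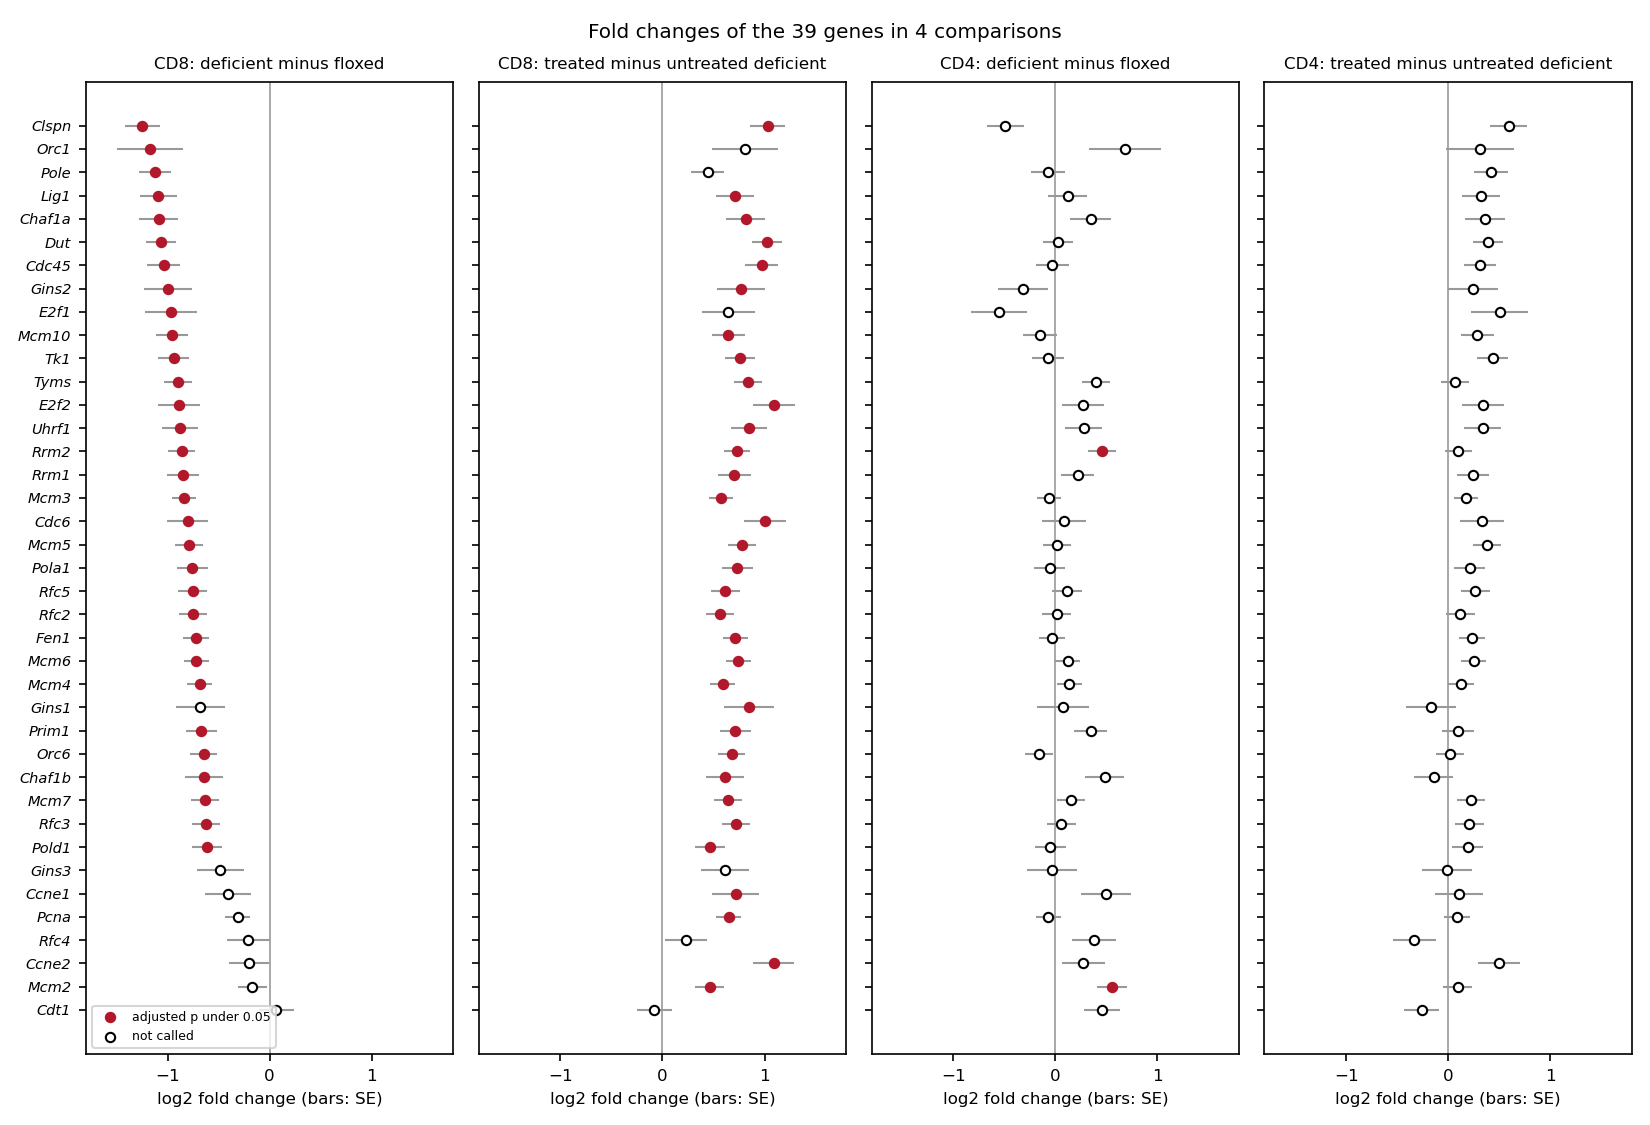
Log2 fold change (x axis) of the 39 members in 4 comparisons, ordered by the CD8 deletion value, with bars of 1 SE and filled points for genes called at an adjusted p under 0.05. In CD8 cells 31 fell with the deletion and 33 rose with the antibodies, and in CD4 cells 2 rose with the deletion and none passed with the antibodies.

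In CD8 cells the 8 members not called for the deletion were Mcm2, Cdt1, Gins1, Gins3, Pcna, Rfc4, Ccne1 and Ccne2. Those not called for the antibodies were Orc1, Cdt1, Gins3, Pole, Rfc4 and E2f1. Treated deficient CD8 cells were then compared with floxed CD8 cells directly. The median of the 39 log2 fold changes was -0.03, near that of all tested genes (-0.0049). The libraries of both groups overlapped for 29 of 39 members. Treated libraries lay wholly above the floxed ones for 4 members and wholly below for 6. Of all 14080 tested genes 1927 lay above and 1776 below, a like share, so the overlap was not particular to the members. Ccne2 was the 1 member higher in treated deficient cells (2.69% of all tested genes were) and Pole the 1 member lower (2.32% of all). For Mcm6 the difference was 0.02 on the log2 scale with a 95% interval of -0.24 to 0.29, for Fen1 the interval was -0.27 to 0.27 and for Dut -0.35 to 0.28. Pcna, with the next smallest p, had 0.34 ± 0.12 (edgeR adjusted p = 0.112). With the 3 libraries over 5% ribosomal left out, or without floxed replicate 1 or treated deficient replicate 1 or 2, no member was called, and without treated deficient replicate 3 there was 1. Because floxed mice with antibodies were not analysed here, this comparison joins the deletion and the antibodies.

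In CD4 cells few members were called. They summed to 3345 to 3533 CPM in treated deficient, 2778 to 3282 in deficient and 2476 to 3292 in floxed CD4 libraries. The deficient and floxed libraries overlapped, and the treated ones lay above both. For the deletion, 2 of 39 members rose and none fell (4.61% of all tested genes rose), with a median log2 fold change of 0.08. That median was -0.034 without deficient CD4 replicate 3 and 0.20 without floxed CD4 replicate 2. At an unadjusted p under 0.05 there were 7 members, 6 of them higher. Of all tested genes 24.2% passed that threshold in either direction. Mcm2 had 198, 183 and 174 CPM in deficient and 112, 159.6 and 105 in floxed CD4 libraries, with no overlap and a log2 fold change of 0.56 ± 0.14 (edgeR adjusted p = 0.0148). Rrm2 had 73.0, 69.6 and 84.7 CPM in deficient and 47.2, 64.9 and 52.4 in floxed CD4 libraries, likewise without overlap (0.46 ± 0.13, edgeR adjusted p = 0.0296). Tyms had 48.7, 58.0 and 49.1 CPM in deficient and 35.3, 41.0 and 42.2 in floxed CD4 libraries and did not pass (0.40 ± 0.14, edgeR adjusted p = 0.0689). Deficient libraries lay above floxed ones without overlap for 5 of 39 members (13.2% of all tested genes). The count of 2 was 7 without floxed replicate 2 and 0 without floxed replicate 3 or deficient replicate 1. It was 1 without floxed replicate 1, deficient replicate 2, treated deficient replicate 1 or 3 of the CD4 libraries, or without deficient replicate 2 or treated deficient replicate 1 or 3 of the CD8 libraries, which share the estimate of spread.

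With the antibodies no member was called in CD4 cells by edgeR, where 0.142% of all tested genes were called in either direction. The count at an unadjusted p under 0.05 was 6, all higher, while 11.3% of all tested genes passed that threshold in either direction. DESeq2 called none of the members. Without deficient CD4 replicate 3 the count was 1. The estimates were positive for 34 of 39 members, with a median of 0.24, and the treated libraries lay above the deficient ones without overlap for 14 (10.1% of all tested genes). All 12 pan T cell genes also had positive estimates, with a median of 0.34, and their treated libraries lay above the deficient ones for 7. Per 100 CPM of those genes the members averaged 66.7 ± 5.73 CPM in treated and 72.3 ± 4.2 CPM in untreated deficient CD4 libraries (SD, n = 3 each). Melanoma markers summed to 466 to 2046 CPM in treated and 1894 to 4449.5 CPM in untreated deficient CD4 libraries, with a median log2 fold change of -1.72. The part of these shifts in the members' estimates was not tested. Clspn had 44.6, 45.7 and 51.4 CPM in treated and 25.1, 30.1 and 40.1 in untreated deficient CD4 libraries, which did not overlap (0.59 ± 0.18, edgeR adjusted p = 0.196). Tk1 had 44.6, 56.8 and 46.2 CPM in treated and 36.7, 34.3 and 37.5 in untreated deficient CD4 libraries (0.44 ± 0.15, edgeR adjusted p = 0.285). For Mcm5 the values were 230.1, 259 and 232 CPM in treated and 192, 169 and 191 in untreated deficient CD4 libraries, again apart (0.38 ± 0.14, edgeR adjusted p = 0.287).

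By role, the licensing factors summed to 1350.4 to 1481 CPM in treated deficient, 1142 to 1355 in deficient and 1007 to 1302 in floxed CD4 libraries. The nucleotide supply enzymes summed to 579 to 593, 448 to 568 and 356 to 514 CPM, and the G1 to S regulators to 149.6 to 158, 106 to 146 and 73.0 to 139 CPM, in the same groups. For the enzymes and the regulators the treated libraries lay above all others, while the deficient and floxed ones overlapped. The helicase activation factors overlapped between all 3 groups, with 110.3 to 145 CPM in treated deficient, 106 to 128 in deficient and 112 to 137 in floxed libraries. Cdt1, which stood apart in CD8 cells, had 60.4, 54.8 and 54.5 CPM in deficient and 41.5, 44.3 and 37.8 in floxed CD4 libraries, without overlap, and did not pass after adjustment (0.46 ± 0.18, edgeR adjusted p = 0.101).

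Treated deficient CD4 cells exceeded floxed CD4 cells in 6 of 39 members (4.08% of all tested genes rose), and the median of the 39 was 0.35. The 6 were Mcm2 (0.65), Ccne2 (0.77), Chaf1a (0.71), Uhrf1 (0.62), Rrm2 (0.56) and Tyms (0.47). Ccne2 had 41.4, 40.9 and 42.9 CPM in treated deficient and 23, 30.6 and 19.4 in floxed CD4 libraries, with the groups apart (edgeR adjusted p = 0.0178). Rrm2 had 87.9, 72.2 and 81.9 CPM in treated deficient CD4 libraries, against the floxed values above (edgeR adjusted p = 0.00863), and Mcm2 had 199, 169 and 222 (adjusted p = 0.00516). The count depended on the libraries, with 1 call without floxed CD4 replicate 1 or 3, 16 without floxed CD4 replicate 2, 2 without treated deficient CD4 replicate 1, 3 without treated deficient CD4 replicate 2 or 3, and 11 without floxed CD8 replicate 1. Macrophage and monocyte markers summed to 4849 to 6950.2 CPM in treated deficient, 5014 to 6951 in deficient and 14499 to 29478 in floxed CD4 libraries, with all 20 markers above 0 in each library. Dendritic cell markers summed to 2268 to 3545, 3291 to 5173 and 7695.5 to 17654 CPM in those groups. Per 100 CPM of pan T cell genes the members had 62.2 to 73.1, 67.4 to 75.1 and 60.0 to 92.7 CPM in the same groups, which overlapped. With the marker sums as covariates 0 members were called for the CD4 deletion and 0 for treated deficient against floxed CD4 cells. How many of all tested genes that fit called is not given here.

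The difference between the deletion effects in CD8 and CD4 cells was tested directly. It was negative for all 39 members, with a median of -0.81 on the log2 scale, and passed the test for 26, where 4.72% of all tested genes were called lower. Rrm2 had the smallest adjusted p. Its log2 fold change was -0.86 in CD8 and 0.46 in CD4 cells, a difference of -1.32 ± 0.19 (edgeR adjusted p = 1.48e-04). Tyms followed with -0.90 in CD8 and 0.40 in CD4 cells, a difference of -1.30 ± 0.19 (adjusted p = 2.21e-04). For Dut the values were -1.06 and 0.02, a difference of -1.09 ± 0.21 (adjusted p = 0.00147). All 5 nucleotide supply enzymes differed, as did 8 of 11 fork enzymes, 7 of 10 licensing factors, 3 of 4 chromatin and checkpoint factors, 2 of 5 helicase activation factors and 1 of 4 G1 to S regulators (E2f2, -1.16 ± 0.29, edgeR adjusted p = 0.0111). Clspn and E2f1, which fell in CD8 cells, also had negative estimates in CD4 cells (-0.49 and -0.55), and their differences did not pass (-0.76 and -0.42). Of the 20 macrophage and monocyte markers, 9 rose with the deletion in CD8 cells and 16 fell in CD4 cells. Among the 10 dendritic cell markers 5 rose in CD8 cells and 5 fell in CD4 cells. With the melanoma and macrophage sums as covariates 2 members were called, and the share of all tested genes called in that fit is not given here. All 12 pan T cell genes had negative differences too, with a median of -0.51, and 3 were called. Per 100 CPM of those genes the members averaged 111 ± 6.6 CPM in deficient and 139 ± 26.3 in floxed CD8 libraries, and 72.3 ± 4.2 in deficient and 78.1 ± 16.6 in floxed CD4 libraries (SD, n = 3 each). The part of macrophage, dendritic cell and T cell RNA in the difference was not tested further.

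**Figure D5:**
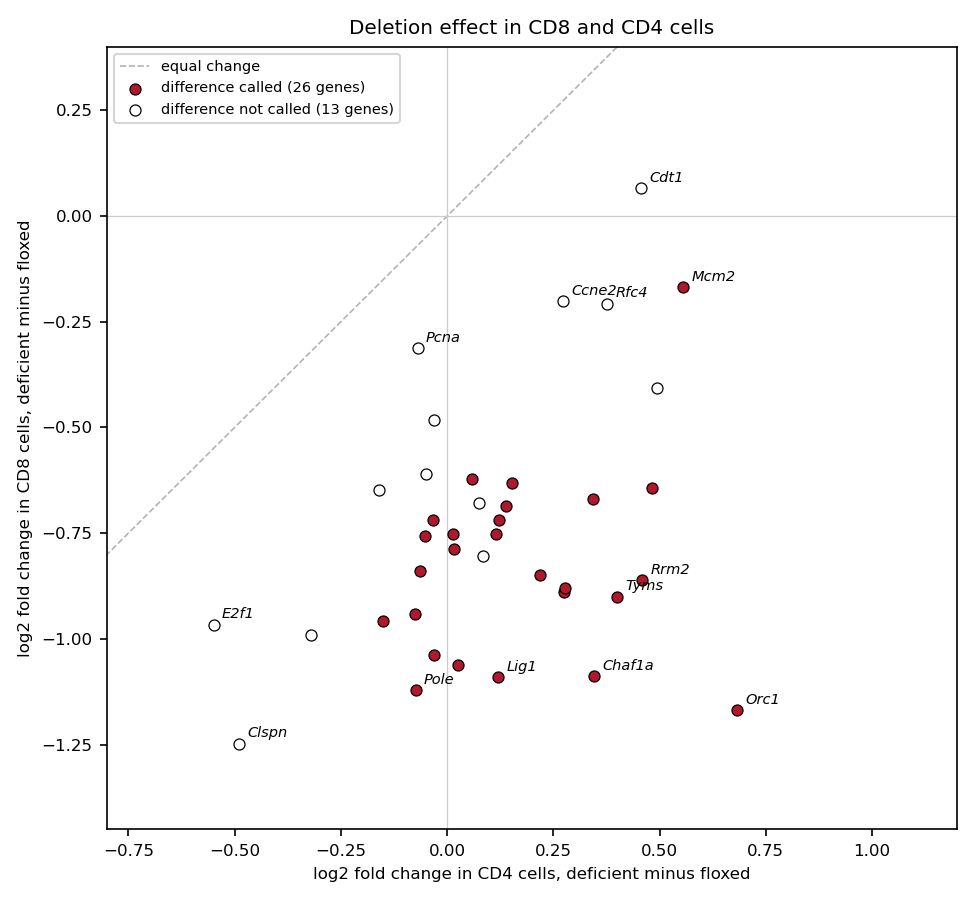
Log2 fold change of each member in deficient against floxed cells, CD8 on the y axis and CD4 on the x axis, with filled points where the difference between cell types was called (26 of 39) and a dashed line of equal change. All 39 points lay below the line, between -1.25 and 0.07 on the CD8 axis and between -0.55 and 0.68 on the CD4 axis.

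The blockade effect was larger in CD8 than in CD4 cells by estimate for all 39 members (median difference 0.50 on the log2 scale), and none of these differences was called by edgeR, where 0.803% of all tested genes were called in either direction. At an unadjusted p under 0.05 there were 19, all positive, while 12.2% of all tested genes passed that threshold in either direction. DESeq2 called 1 member. The smallest adjusted p was that of Tyms (0.77 ± 0.19, edgeR adjusted p = 0.0658), with a 95% interval of 0.35 to 1.19. Orc6 (0.65 ± 0.19) and Rrm2 (0.63 ± 0.19) followed (edgeR adjusted p = 0.128 and 0.13). A fit on the 12 libraries of the 4 groups compared called 4 members, and the fit of all groups called 1 without floxed CD8 replicate 1.

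Levels in CD8 cells were compared with those in CD4 cells of the same condition. In treated deficient tumors 36 of 39 members were higher in CD8 cells (9.36% of all tested genes were), with a median of 0.84 on the log2 scale. Rrm2 averaged 174 ± 4.84 CPM in CD8 and 80.7 ± 7.95 CPM in CD4 cells there (SD, n = 3 each), a log2 difference of 1.10 ± 0.13 (edgeR adjusted p = 6.23e-06). Orc6, a subunit of the origin recognition complex, had 87.7, 96.7 and 83.4 CPM in CD8 and 44.5, 37.0 and 42.4 in CD4 libraries of treated deficient mice, which did not overlap (1.10 ± 0.14, edgeR adjusted p = 9.10e-06). Dut had 223, 262 and 242 CPM in CD8 and 120.3, 115 and 103 in CD4 libraries of those mice (1.10 ± 0.15, edgeR adjusted p = 2.02e-05). In deficient tumors the CD8 cells had 13 members higher (6.21% of all tested genes) and 1 lower (9.39% of all) and a median of 0.36. Pole led there, with 96.2, 114 and 101 CPM in CD8 and 50.1, 50.5 and 59.3 in CD4 libraries (0.97 ± 0.16, edgeR adjusted p = 3.36e-04). Clspn had 51.4, 61.2 and 52.6 CPM in CD8 and 25.1, 30.1 and 40.1 in CD4 libraries of deficient mice, without overlap (0.81 ± 0.18, edgeR adjusted p = 0.00368). Mcm7, another subunit of the helicase ring, had 129.9, 132 and 115 CPM in CD8 and 87.7, 77.8 and 81.3 in CD4 libraries (0.61 ± 0.14, edgeR adjusted p = 0.00447). The member lower in CD8 cells was E2f2, with 38.1, 36.6 and 32.6 CPM in deficient CD8 and 53.4, 49.9 and 63.2 in deficient CD4 libraries, which did not overlap (-0.63 ± 0.21, edgeR adjusted p = 0.0435). The count of 14 became 8 without deficient CD8 replicate 1 or 3, 5 without deficient CD8 replicate 2 or deficient CD4 replicate 1, and 4 without deficient CD4 replicate 2.

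In floxed tumors 38 of 39 members were higher in CD8 cells (18.9% of all tested genes were), with a median of 1.18. Rrm2 had 206, 173 and 192 CPM in CD8 and 47.2, 64.9 and 52.4 in CD4 libraries of floxed mice, wholly apart (1.79 ± 0.14, edgeR adjusted p = 4.46e-09). Pole had 238, 219 and 220.1 CPM in CD8 and 42.0, 74.7 and 50.4 in CD4 libraries (2.01 ± 0.17, edgeR adjusted p = 1.38e-08), and Dut had 239.6, 257 and 248 in CD8 and 82.1, 89.7 and 81.2 in CD4 libraries (1.56 ± 0.15, adjusted p = 8.06e-08). Cdt1 was the 1 member that did not pass (0.43 ± 0.17, edgeR adjusted p = 0.0585). Macrophage RNA differed here as well, 797 to 2323 CPM in floxed CD8 and 14499 to 29478 CPM in floxed CD4 libraries. So did the dendritic cell markers, with 352.5 to 427 CPM in floxed CD8 and 7695.5 to 17654 CPM in floxed CD4 libraries. The part of dendritic cell RNA in these comparisons was not tested. With the marker sums as covariates 12 members were called in treated deficient, 2 in deficient and 5 in floxed tumors, with medians of 0.82, 0.35 and 1.09. The share of all tested genes called in that fit is not given here. These counts therefore do not tell if the members lost calls more than other genes. Per 100 CPM of pan T cell genes the CD8 libraries (104 to 166 CPM) lay above the CD4 libraries (60.0 to 92.7 CPM) in all conditions.

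Over the 6 groups, treated deficient and floxed CD8 cells had the 2 highest means for 37 of 39 members. Floxed CD8 cells led for 24, treated deficient CD8 cells for 14 and deficient CD8 cells for 1 (Cdt1), and a CD4 group was lowest for 38, while E2f2 was lowest in deficient CD8 cells. Between genes, levels are compared per kilobase of exon, with all annotated exons of a gene model counted. The order therefore also depends on the annotated length. Rrm1, with a model of 11012 bases, averaged 525 CPM but 47.6 CPM per kb in floxed CD8 cells. In floxed CD8 cells Mcm6 (140.3 CPM per kb), Pcna (110.1), Mcm3 (104), Dut (103) and Mcm5 (101) were highest, and E2f1 (8.25), Orc1 (9.88) and Gins2 (10.5) lowest. Within the Mcm ring the levels ran between 43.5 and 140.3 CPM per kb. Replicate spread was widest in floxed CD4 cells, with a median coefficient of variation of 20.9% over the members, against 6.74% in treated deficient CD8 cells.

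Other genes of the pathway moved with the members in CD8 cells. Of 45 further replication genes, 24 fell and none rose with the deletion, and 16 rose and none fell with the antibodies (medians -0.51 and 0.43). Atad5, which helps to unload Pcna, changed by -0.97 ± 0.14 (edgeR adjusted p = 1.01e-04) and 0.61 ± 0.15 (adjusted p = 0.00778). Rpa2, a subunit of the factor that coats single strands, changed by -0.86 and 0.77, and Gmnn, the inhibitor of Cdt1, by -0.75 and 0.85. Slbp, which binds histone messages, changed by -0.46 and 0.78. None of the origin recognition subunits Orc2, Orc3, Orc4 and Orc5 passed in either comparison. In CD4 cells 1 of the 45, Recql4, rose with the deletion (1.05 ± 0.28, edgeR adjusted p = 0.0168).

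Of 17 further genes of nucleotide supply, 3 fell and 1 rose with the deletion in CD8 cells, while 1353 of all 14080 tested genes fell and 1359 rose. Shmt1 and Cad, enzymes of one-carbon metabolism and of pyrimidine synthesis, fell by 0.77 and 0.69 on the log2 scale. The gene that rose was Samhd1, an enzyme that destroys deoxynucleotides, with 252 to 270.2 CPM in treated deficient, 352 to 376 in deficient and 201 to 324 in floxed CD8 libraries (0.56 ± 0.18, edgeR adjusted p = 0.0306). Samhd1 had 663 to 800.2, 558 to 767 and 697 to 1123 CPM in the same groups of CD4 libraries, where macrophage RNA was higher, and the part of macrophage RNA in its rise was not tested. In CD4 cells Mthfd2 and Shmt2 rose with the deletion and Dck fell (0.42, 0.55 and -0.69).

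Of 18 further G1 to S genes, 7 fell and none rose with the deletion in CD8 cells. Cdk6, a kinase that works with D cyclins, averaged 205 ± 17.4 CPM in treated deficient, 115 ± 28.8 in deficient and 340.3 ± 166 in floxed CD8 cells (SD, n = 3 each). Its log2 fold changes were -1.56 ± 0.25 for the deletion (edgeR adjusted p = 4.58e-04) and 0.84 ± 0.25 for the antibodies (adjusted p = 0.0342). E2f7, a repressing E2F factor, fell by 1.84, and E2f3, E2f4, E2f8, Tfdp1 and Cdc25a fell as well. With the antibodies Tfdp1 (0.70) and Cdk6 rose and Ccnd1 fell (-2.65). Ccnd1, a D cyclin, had 10.3 to 16.6 CPM in treated deficient, 50.9 to 138 in deficient and 24 to 165 in floxed CD8 libraries. The melanoma sum averaged 888 ± 760.4 CPM and the macrophage sum 1225 ± 96.6 CPM in treated deficient CD8 libraries, against 2604 ± 1026 and 2520.0 ± 881 CPM in deficient ones (SD, n = 3 each), and their part in the fall of Ccnd1 was not tested. Myc had -0.27 ± 0.26 and -0.45 ± 0.27, Ccnd2 0.22 ± 0.25 and -0.23 ± 0.25, and Ccnd3 -0.04 ± 0.17 and 0.33 ± 0.17 for the deletion and the antibodies, and none of these passed. In CD4 cells Cdk2 rose with the deletion (1.06 ± 0.22, edgeR adjusted p = 0.0039).

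The 10 CDK inhibitors and pocket proteins, which hold cells in G1, moved in both directions. In CD8 cells 2 rose and 4 fell with the deletion, and 5 rose with the antibodies. Cdkn1b (p27), the inhibitor of cyclin E with Cdk2, averaged 172 ± 24.1 CPM in treated deficient, 227 ± 48.6 in deficient and 94.9 ± 15.3 in floxed CD8 cells (SD, n = 3 each). It rose by 1.26 ± 0.19 on the log2 scale with the deletion (edgeR adjusted p = 1.24e-04), had -0.40 ± 0.19 with the antibodies (adjusted p = 0.167) and was higher in treated deficient than in floxed cells (0.86 ± 0.19, adjusted p = 0.0156). In CD4 cells it rose by 0.63 ± 0.19 with the deletion (edgeR adjusted p = 0.0313). In CD8 cells the inhibitor Cdkn2d rose with the deletion as well (0.46). Cdkn2c, an inhibitor of Cdk4 and Cdk6 that is itself a known E2F target, fell with the deletion (-0.99) and rose with the antibodies (1.09), as did the pocket protein Rbl2 (-1.0 and 0.80), Cdkn2a (-1.22 and 1.95) and Cdkn2b (-1.76 and 2.90). Cdkn2a and Cdkn2b had low levels, with means of 2.58 and 1.76 CPM in deficient CD8 libraries. In treated deficient CD8 libraries they averaged 10.0 and 13.5 CPM. A floor of 3 counts is 0.258 to 1.24 CPM.

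Later phases of the cycle moved with S phase. Of 15 genes of G2 and mitosis, 14 fell with the deletion and 12 rose with the antibodies in CD8 cells. Mki67, a protein of cycling cells, had 807 to 878 CPM in treated deficient, 459 to 590.4 in deficient and 1162 to 1597 in floxed CD8 libraries. It fell by 1.40 on the log2 scale with the deletion (edgeR adjusted p = 9.44e-05) and rose by 0.73 ± 0.20 with the antibodies (adjusted p = 0.0183). In CD4 cells 2 of the 15, Ccnb1 and Bub1, rose with the deletion (1.13 and 0.56), and the estimates of all 15 were positive.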

How the data were processed

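RNA was sequenced from sorted T cells in 18 libraries, in 6 groups of 3 by cell type, genotype and antibody treatment as the labels give them. The deposited values are read counts per gene, made per the file headers with featureCounts 1.5.1 (strand option 2) on Ensembl release 87. The submitters' processing notes name the build GRCm38 and the tools STAR, featureCounts and DESeq2. The headers show no option for reads that map to several places or overlap several genes. Symbols came from GENCODE M21, which held 49326 of the 49671 IDs. Coordinates are those of the files, and both annotations place 38 of 39 members identically. Models that overlap members on the same strand had at most 37 counts in a library (Gm45399 at Rrm1).

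A single model of all 18 libraries was fitted in R 4.3.3 by edgeR 4.0.16 (filterByExpr with a minimum count of 10, TMM scaling, robust quasi-likelihood fit, no block), with 12 residual degrees of freedom and a common biological coefficient of variation of 0.229. Standard errors are the log2 fold change over the root of the test's F. CPM are TMM-scaled. A floor of 3 counts is 0.258 to 1.24 CPM by library, for counting error only. Members were counted against the share of all 14080 tested genes called, with no set test.

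The members, lists and tests were chosen with earlier results of these data known. Named were, per role, the 2 members with the smallest adjusted p for the CD8 deletion (4 for licensing and fork), members of opposite sign, the 3 with the smallest adjusted p elsewhere, up to 4 genes of each other list, and Myc, Cdkn1b, Ccnd2, Ccnd3, Mir155hg, Cd4, Cd8a, Cd8b1 and Mki67. A gene of the other lists that this rule would name is not reported here. Same-numbered libraries were checked for shared deviations, which decides whether a number pairs samples. All 3 correlations exceeded 0.1 only for CD8 against CD4 cells of treated deficient mice (0.105, 0.103 and 0.289), so the pairing there comes from the data, not from the labels. Alternatives were RLE scaling, no or a stricter filter, DESeq2 1.42.0, limma 3.58.1 voom, fits on the groups compared, a replicate block, ribosomal models left out, marker covariates and leaving out each library.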

Additional observations from a re-analysis of the deposited data

Results flagged for a closer look

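The deletion effect differed between CD8 and CD4 cells for 26 of the 39 members, while 4.72% of all tested genes were called lower. The test was that of the difference itself (edgeR's quasi-likelihood test, Benjamini-Hochberg over 14080 genes). The 3 members with the smallest adjusted p were Rrm2 (-1.32 on the log2 scale, CD8 minus CD4), Tyms (-1.30) and Dut (-1.09). In each of the 3 genes all deficient CD8 libraries lay below all floxed CD8 libraries, while in CD4 cells the deficient libraries lay above the floxed ones for Rrm2 and Tyms and overlapped them for Dut. With the melanoma and macrophage sums as covariates 2 members were called for the difference. Of the 20 macrophage and monocyte markers, 9 rose with the deletion in CD8 cells and 16 fell in CD4 cells. The part of macrophage RNA in the difference was not tested further. Groups of 3 were not tested for outlying libraries.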

How the results depend on the processing

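The counts of members called in the CD8 deletion, the CD8 blockade, the CD8 against CD4 comparisons and the difference of the deletion effects stayed within 1.5 times under RLE scaling, no filter, a stricter filter, DESeq2, limma voom, fits on the groups compared, the replicate block, ribosomal models left out and the 3 libraries over 5% ribosomal left out (this last chosen after seeing the data). Melanoma and macrophage covariates moved 10 of the 11 counts: 0 for the CD8 deletion, 0 for the CD4 deletion, 8 for the CD8 blockade, 1 and 0 for treated deficient against floxed CD8 and CD4 cells, 12, 2 and 5 for CD8 against CD4 in treated deficient, deficient and floxed tumors, 2 for the deletion difference and 1 for the blockade difference. Except for the CD8 deletion, the number of all tested genes called in the covariate fit is not given here. For the blockade difference (0 as reported) DESeq2 called 1 and a fit on the groups compared 4. For treated deficient against floxed CD4 cells (6 as reported) DESeq2 called 11, the groups compared 2 and the set without ribosomal libraries 12. For treated deficient against floxed CD8 cells (2) the groups compared gave 1 and the set without ribosomal libraries 0. For the CD4 deletion (2) no filter, limma voom and the groups compared each gave 1, and for the CD4 blockade (0) no filter gave 1.

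With the replicate number as a block the fit called 1 member for the blockade difference and 12 for treated deficient against floxed CD4 cells, and the other counts stayed within 1.5 times, 37 (36 without the block) for CD8 against CD4 in treated deficient tumors included. In CD8 against CD4 of deficient and of treated deficient tumors every library correlated best with its own number, a hint from the data and not from the design. Elsewhere this held for some libraries at most, such as replicates 2 and 3 in CD8 against CD4 of floxed tumors (correlations 0.0281 and 0.0876). The labels link libraries of different groups by number only.

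Leaving out 1 library at a time gave 28 to 33 members for the CD8 deletion, 0 to 7 for the CD4 deletion, 24 to 34 and 0 to 1 for the CD8 and CD4 blockade, 0 to 3 and 1 to 16 for treated deficient against floxed CD8 and CD4 cells, 33 to 37, 4 to 17 and 34 to 39 for CD8 against CD4 in treated deficient, deficient and floxed tumors, 21 to 29 for the deletion difference and 0 to 1 for the blockade difference. Signs turned for Ccne2 in the CD8 deletion (0.31 with covariates, -0.38 to 0.033 with 1 library left out), Cdt1 there (-0.062 to 0.24 with 1 library left out) and E2f2 for CD8 against CD4 in floxed tumors (-0.65 with covariates), and the cause was not tested. With 1 library left out the median of the members also crossed 0 for the CD4 deletion (-0.034 to 0.20). It did so too for treated deficient against floxed CD8 cells (-0.11 to 0.014).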
